A study of Mus musculus with 6 samples.

Results

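The cells described here are macrophages and other myeloid cells of the mouse uterine tube (oviduct), the duct that runs between ovary and uterus, in droplet single-cell RNA libraries of its proximal and distal sections. The barcodes were chosen by their UMI counts of marker genes. A barcode was taken as myeloid when at least 3 of 8 myeloid genes (Lyz2, Csf1r, Cd68, Tyrobp, Fcer1g, Adgre1, C1qa and C1qb) had a unique molecular identifier (UMI), fewer than 2 of 5 lymphoid genes (Cd3e, Cd3d, Cd3g, Ncr1 and Klrb1c) were detected, and Epcam, Krt7, Krt8 and Krt18 together had under 3 UMIs. This rule found 172 of the 19619 barcodes that had at least 500 UMIs and 250 genes, or 0.877%, which are called myeloid barcodes below. The 3 proximal libraries (numbered 2, 3 and 4), from the section next to the uterus, held 35 of them, and the 3 distal libraries (1, 2 and 3), from the section next to the ovary, held 137. All tubes came from adult C57BL6 females in estrus, with no treatment or transgene named in the labels. The sections came from partly different groups of mice, since the group numbers run over 2, 3 and 4 in proximal and 1, 2 and 3 in distal. Each library combined the tissue of one section over a group of mice, after digestion with collagenase, hyaluronidase, TrypLE and Dispase and removal of dead cells and how many mice each group held is not used here. The library is therefore the replicate, and no label ties a library to separate experiments beyond its group number.

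Macrophages live in most tissues, where they engulf dying cells and debris, carry complement and antibody receptors, and digest what they take up in lysosomes. They depend on the growth factor receptor encoded by Csf1r and on the transcription factor PU.1, the product of Spi1. Conventional dendritic cells, which depend on the receptor Flt3, are specialised in loading peptides onto MHC class II molecules for display to T cells, and neutrophils, monocytes and plasmacytoid dendritic cells are further myeloid types that a tissue digest can hold.

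Depth differed between libraries and bears on every count below. Listed barcodes per library numbered 1189, 327 and 1154 in proximal 2, 3 and 4, and 7371, 4656 and 6034 in distal 1, 2 and 3, and total UMIs ran between 426707 in proximal 3 and 32488145 in distal 1. The myeloid barcodes had a median of 4982, 1281 and 1121 UMIs in the proximal libraries and 2201, 4144 and 2919.5 UMIs in the distal libraries. Proximal 3, with 3 myeloid barcodes, is shown by its values and enters no main test inside the myeloid barcodes. It enters only the alternative settings with all 6 libraries. A total of 191 barcode sequences were kept in more than 1 library. Among them 4 were myeloid in one library and kept in another, and none was myeloid in more than 1. Of the 172 myeloid barcodes, 9 were among the highest doublet scores of their library and 2 had over 20% mitochondrial UMIs. Ovgp1, the oviductal glycoprotein gene of the epithelium, had a UMI in 28.5% of myeloid, 26.3% of T and NK and 34.9% of fibroblast barcodes. Median depths were 2694.5, 2052 and 3513.5 UMIs in the same order. After thinning every barcode to 500 UMIs these shares were 8.14%, 10.3% and 7.37%. Whether free RNA or doublets with epithelial cells gave these Ovgp1 UMIs was not tested. C1qc, a complement gene the rule did not use, had a UMI in 51.2% of myeloid barcodes, in 0 of the 243 T and NK barcodes, which allows a share of barcodes with a UMI of up to 1.23%, and in 0.347% of fibroblast barcodes. The rule did use C1qa and C1qb, which encode chains of the same protein. Of the 88 myeloid barcodes with a C1qc UMI, 80 also had C1qa and 85 had C1qb. The C1qc shares therefore follow in part from the rule.

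The share of myeloid barcodes differed more between libraries of one section than between the sections. Shares were 2.51% (21 of 836), 0.917% (3 of 327) and 0.958% (11 of 1148) of kept barcodes in proximal 2, 3 and 4. They were 0.851% (61 of 7171), 1.34% (58 of 4339) and 0.310% (18 of 5798) in distal 1, 2 and 3. Proximal 2 was the highest and distal 3 the lowest, and the other 4 libraries lay between 0.851% and 1.34%, so the sections overlapped. Exact (Clopper-Pearson) 95% intervals, which cover counting error only, were 1.56 to 3.81% for proximal 2, 0.190 to 2.66% for proximal 3, 0.479 to 1.71% for proximal 4, 0.651 to 1.09% for distal 1, 1.02 to 1.72% for distal 2 and 0.184 to 0.490% for distal 3. The mean was 1.46% ± 0.909 in proximal and 0.833% ± 0.513 in distal libraries (SD, n = 3 each), a difference of 0.630 percentage points with an exact two-sided permutation p of 0.4, where 3 against 3 libraries cannot go below 0.1. The value rested on proximal 2: without it the difference was 0.105 points. Thinned to 500 UMIs per barcode, the shares were 1.44%, 0.306% and 0.697% in the proximal libraries and 0.641%, 0.830% and 0.207% in the distal libraries, and the difference was 0.253 points (exact permutation p = 0.6). With at least 2 of the 8 marker genes asked for, the shares were 5.26%, 2.45% and 4.01% in the proximal libraries and 1.44%, 1.80% and 0.621% in the distal libraries, which did not overlap (difference 2.62 points, exact permutation p = 0.1, the smallest possible). Barcodes with exactly 2 of these genes had a Ctss UMI in only 12.6% and a Ptprc UMI in 49.7%, beside 90.7% and 42.4% with 4 or more. With Lyz2, Tyrobp and Fcer1g counted as 1 marker, the shares were 1.44%, 0% and 0.436% in the proximal libraries. In the distal libraries they were 0.669%, 0.876% and 0.190%, so the sections overlapped, with a difference of 0.0454 points. In a digest, fewer myeloid cells in the tissue and fewer recovered from it cannot be told apart.

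**Figure D1:**
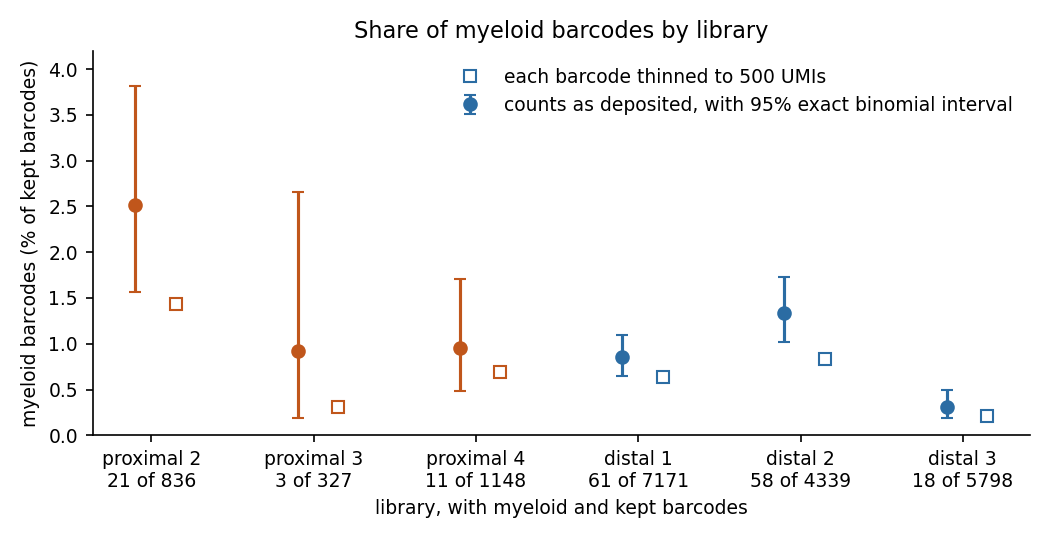
Share of kept barcodes (%) that met the myeloid rule in each library, proximal in orange and distal in blue. Filled circles are the counts as deposited with exact 95% binomial intervals, and open squares are the shares after thinning each barcode to 500 UMIs. Proximal 2 stands highest at 2.51% and distal 3 lowest at 0.310%, and the 2 sections overlap.

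The rule itself sets how the myeloid barcodes differ from the rest, so all levels against other barcodes are descriptions. Of the 8 rule genes, Fcer1g and Tyrobp, which encode adaptors of activating receptors, were found in 94.8% and 89.5% of myeloid barcodes, but also in 47.3% and 47.7% of T and NK barcodes. Lyz2, a lysozyme gene, was found in 75.0% of myeloid barcodes, C1qb and C1qa in 60.5% and 54.7%, the lysosomal Cd68 in 49.4%, and Csf1r and Adgre1 (F4/80) in 37.8% each. A total of 54 myeloid barcodes had exactly 3 of the 8 genes, and 22 had all 8. Another 1 barcode with at least 3 of them was left out by its lymphoid genes and 33 by their keratin and Epcam UMIs. At the edge of the rule, 143 barcodes had exactly 2 myeloid genes and met the other conditions. Cd74 stood at 8852 CPM (the summed UMIs of the gene scaled to the total of the set, as CPM) in barcodes with exactly 3 genes and at 1411 CPM in those with exactly 2. Ctss stood at 617 and 105 CPM in the same order, and C1qc at 70.3 CPM in barcodes with exactly 3 genes and 36.6 CPM in those with exactly 2, beside 1860.4 CPM in those with 4 or more. Most barcodes with C1qc also had the rule genes C1qa and C1qb, so its rise with the number of genes follows in part from the rule.

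Outside the rule genes, those of MHC class II led the myeloid barcodes. A pooled level of at least 100 CPM in myeloid barcodes was reached by 1696 genes. Of these, 144 (8.49%) were at least 4-fold higher in myeloid than in other barcodes in each of 5 libraries, on the log2(CPM + 10) scale. The 5 libraries are those with 10 or more myeloid barcodes. Both numbers include the rule genes, on which the barcodes were chosen. With the rule genes left out, the highest 4 by their lowest fold were H2-Aa, H2-Ab1, Cd74 and H2-Eb1. H2-Aa and H2-Ab1 encode the chains of I-A, H2-Eb1 a chain of I-E, and Cd74 the invariant chain that guards the peptide groove until the endosome. Cd74 in myeloid barcodes stood at 10698, 9494 and 18218 CPM in proximal 2, 3 and 4, and 6313, 14954 and 15082 CPM in distal 1, 2 and 3, and in the other barcodes at 24.5 to 271 CPM. H2-Aa in myeloid barcodes stood at 4213, 1726 and 8911 CPM in proximal 2, 3 and 4, and 2987, 6003 and 7719 CPM in distal 1, 2 and 3, against 10.2 to 108 CPM in the other barcodes. Within every library the myeloid level of both was far above that of the other barcodes, and among the myeloid levels proximal 4 was the highest for both, while distal 1 was the lowest for Cd74 and proximal 3 for H2-Aa. H2-DMa and H2-DMb1, whose product exchanges peptides in the groove, had log2 differences over the other barcodes of 4.12 to 5.33 and 3.75 to 5.04 over the 5 libraries. For Cd83 and Cd86, which act in costimulation, they were 4.68 to 6.05 and 3.92 to 6.05. In all, 8 of the 9 genes of the list on MHC class II and costimulation that reached 100 CPM passed the 4-fold limit in each library. The exception was Cd209a, which encodes a lectin of dendritic cells and had no UMI in the myeloid barcodes of distal 3. The class II genes were not seen in every myeloid barcode: Cd74 had a UMI in 117 of 172 and H2-Aa in 98.

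Class II genes share a compact promoter in which a Y box, bound by NF-Y, lies between an X box and the start of transcription, and the coactivator encoded by Ciita acts on the proteins bound there. The promoter sequences of H2-Aa, H2-Eb1 and H2-DMb1 are printed because these genes stood high together. They come from RefSeq on GRCm38.p6, whereas the submitters' processing notes name mm39 for the counts, so the positions serve to place the sequence only. Each runs 5′ to 3′ on the gene's own strand over 250 bases before and 50 bases after the annotated start. Capitals mark the Y box core GATTGG where it lies on the gene's strand, and CCAATC where it lies on the opposite strand. H2-Aa lies on the minus strand at chr17:34287774-34288073, H2-Eb1 on the plus strand at chr17:34305617-34305916 and H2-DMb1 on the plus strand at chr17:34152941-34153240.
H2-Aa: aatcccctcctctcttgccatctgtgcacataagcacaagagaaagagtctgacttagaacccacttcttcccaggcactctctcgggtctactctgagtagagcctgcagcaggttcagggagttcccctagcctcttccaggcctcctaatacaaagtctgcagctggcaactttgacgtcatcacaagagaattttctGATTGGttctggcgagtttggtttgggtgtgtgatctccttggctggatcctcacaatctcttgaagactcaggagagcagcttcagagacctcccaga
H2-Eb1: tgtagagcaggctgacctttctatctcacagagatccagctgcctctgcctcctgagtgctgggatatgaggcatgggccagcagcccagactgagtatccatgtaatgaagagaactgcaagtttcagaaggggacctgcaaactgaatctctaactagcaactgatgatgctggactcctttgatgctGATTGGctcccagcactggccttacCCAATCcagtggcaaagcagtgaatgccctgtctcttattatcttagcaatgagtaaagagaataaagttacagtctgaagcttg
H2-DMb1: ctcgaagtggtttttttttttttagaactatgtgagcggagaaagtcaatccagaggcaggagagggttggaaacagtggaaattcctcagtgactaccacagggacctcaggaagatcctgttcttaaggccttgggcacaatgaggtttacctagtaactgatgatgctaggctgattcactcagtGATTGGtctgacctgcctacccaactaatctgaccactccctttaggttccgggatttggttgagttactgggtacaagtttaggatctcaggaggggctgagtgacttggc
The core began 49 bases before the start in H2-Aa, 60 and again, on the opposite strand, 35 bases before it in H2-Eb1, and 62 bases before it in H2-DMb1. It was present in this window in 7 of the 7 genes found in the table out of 8 class II genes (H2-Aa, H2-Eb1, H2-DMa, H2-DMb1, H2-DMb2, H2-Oa and H2-Ob matched), and in 18.2% of all 27025 promoters there. A match describes the letters only and is not a measured binding site.

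Complement and opsonin receptors formed the next group. C1qc, which encodes a chain of the complement protein C1q, stood at 271, 0 and 858 CPM in proximal 2, 3 and 4, and 1404, 1476 and 1967 CPM in distal 1, 2 and 3, against 0.534 to 3.06 CPM in the other barcodes. It was lowest in proximal 2 among the libraries with 10 or more myeloid barcodes, and had no UMI in the 3 myeloid barcodes of proximal 3. All 7 genes of this list that reached 100 CPM and were not in the rule passed the 4-fold limit in each library. Of these, C1qc encodes a chain of the same protein as the rule genes C1qa and C1qb. Fcgr3 and Fcgr2b, an activating and an inhibitory receptor for IgG, had pooled levels of 200.0 and 132 CPM in myeloid barcodes, and 0.641 and 0.595 CPM in the others. Itgam and Itgb2, the chains of complement receptor 3, had 125 and 171 CPM, against 0.789 and 3.29 CPM. C3ar1, the receptor of the C3a fragment, and Cfp, which encodes properdin, also passed.

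C1qc is also the promoter shown for the second motif, GAGGAAG, read as CTTCCTC on the opposite strand, a core that PU.1 is known to bind. In the same kind of RefSeq window it lay on the minus strand of GRCm38.p6 at chr4:136892865-136893164, with the motif in capitals 194 bases before the start.
C1qc: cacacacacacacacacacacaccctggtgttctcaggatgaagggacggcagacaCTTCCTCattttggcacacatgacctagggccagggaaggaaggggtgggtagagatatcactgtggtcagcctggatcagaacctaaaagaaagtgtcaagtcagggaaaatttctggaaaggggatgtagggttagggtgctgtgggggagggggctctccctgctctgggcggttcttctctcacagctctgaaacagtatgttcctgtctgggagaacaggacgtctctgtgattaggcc
The motif was found in 7 of the 22 leading genes with a promoter in the table (Ctss, C1qc, Pld4, Wfdc17, Clec12a, Laptm5 and Cd300a), or 31.8%, in 15.4% of all promoters, and in none of the 7 class II genes. Both motifs were searched on both strands, and none of the promoters printed here holds both of them. The absence of these letters from a window says nothing of the factor.

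Some lysosomal genes stood far above the other barcodes and others at like levels. Ctss, the cathepsin that trims the invariant chain, stood at 1439, 863 and 792 CPM in proximal 2, 3 and 4, and 1663, 1779.7 and 1611 CPM in distal 1, 2 and 3, against 1.63 to 13.8 CPM in the other barcodes. Its myeloid values were lower in the 3 proximal than in the 3 distal libraries. Lyz1 ran over 637 to 3910.2 CPM in the 5 libraries, highest in proximal 2. Mpeg1, the pore-forming perforin-2 gene of phagosomes, ran over 339 to 726 CPM. Of the 18 lysosomal genes outside the rule, 5 passed the 4-fold limit in each library: Lyz1, Ctss, Mpeg1, Ctsc and Lgmn. Ctsb, another cathepsin, did not differ in this way: its log2 difference over the other barcodes lay between -0.55 and 0.28, and pooled levels were 995 CPM in myeloid and 1704 CPM in epithelial barcodes. Cd63, a lysosomal membrane gene, had 459 CPM in myeloid barcodes and 583 CPM in the others.

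Among lineage factors, Spi1 was low in level in the other barcodes of every library. It had a UMI in 101 of 172 myeloid barcodes and stood at 542, 575 and 528 CPM in proximal 2, 3 and 4, and 309, 547 and 299.8 CPM in distal 1, 2 and 3, against 0.303 to 7.09 CPM in the other barcodes. The lowest myeloid value was far above the highest of the others. In the list on growth factor receptors and lineage factors, 4 of 12 genes passed: Spi1, the fractalkine receptor Cx3cr1, the monocyte chemokine receptor Ccr2 and Irf5, an interferon regulatory factor. Cebpb, which many cell types express, had a log2 difference of only 0.43 to 1.99. In the list on tyrosine-based activation and inhibition, 11 of 14 passed, among them the kinases Syk and Lyn, the phosphatase Ptpn6 and the inhibitory receptor Cd300a. Further leading genes were Cybb, the catalytic subunit of the phagocyte oxidase, with a lowest log2 difference of 4.95, Ms4a6c with 4.57, Lst1 with 4.53, the phospholipase family gene Pld4 with 4.36 and Aif1, which encodes Iba1, with 4.11. The other leading genes were Ly86, Plbd1, Wfdc17, Cd300c2, Gm6377, Clec12a, Plek, Fyb, Laptm5 and Pmaip1.

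Cytokine and chemokine genes were high but uneven between libraries. Ccl4, a chemokine gene, stood at 845, 0 and 3234 CPM in proximal 2, 3 and 4, and 1775, 2140.0 and 1986 CPM in distal 1, 2 and 3, against 10.2 to 136 CPM in the other barcodes. Il1b, the interleukin-1β gene, stood at 83.4, 0 and 396 CPM in proximal 2, 3 and 4, and 495, 482 and 506 CPM in distal 1, 2 and 3, and its lowest value among the 5 larger libraries was in proximal 2. Of 15 genes of this list at 100 CPM, 9 passed the 4-fold limit in each library: Ccl9, Tnf, Ccl6, Osm, Tgfb1, Ccl3, Ccl4, Cxcl2 and Il1b. Ccl3 and Ccl4 also stood at 790.1 and 1704 CPM in T and NK barcodes, so they do not mark myeloid barcodes alone. Apoe, which carries lipid, stood at 3973, 1438 and 5743 CPM in proximal 2, 3 and 4, and 10128, 8989.7 and 14052 CPM in distal 1, 2 and 3, but also at 1369.9 CPM in fibroblast barcodes, and 1 of 9 genes on iron, haem and lipid passed, the phagosomal metal transporter Slc11a1. Scavenger and efferocytosis genes passed in 2 of 6 (Clec12a and Clec7a) and pattern recognition genes in 2 of 7 (Ly86 and Tlr2).

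Some responses were no higher in myeloid barcodes. None of 4 interferon response genes at 100 CPM and none of 16 immediate early and stress genes passed the 4-fold limit, in either direction. The median log2 difference of the immediate early and stress genes was -0.46, beside 0.15 over all 1696 genes. Fos, which dissociation of tissue is known to induce, stood at 1220, 1438 and 2706 CPM in proximal 2, 3 and 4, and 2455, 1289 and 2042 CPM in distal 1, 2 and 3, and was lower than in the other barcodes of every library. The metallothionein gene Mt1 had 829 CPM in myeloid barcodes, against 1903 CPM in the others.

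**Figure D2:**
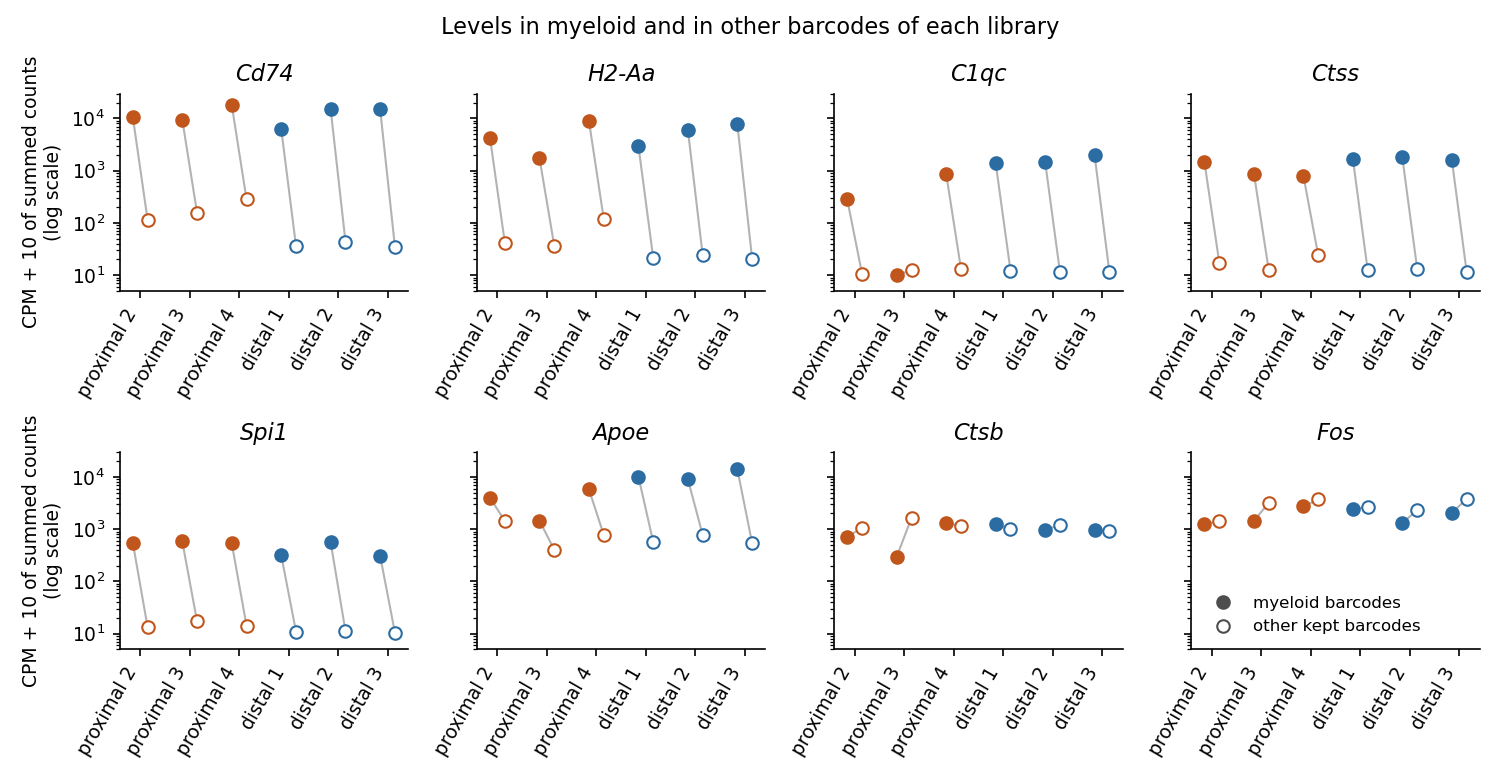
Levels of 8 genes in myeloid barcodes (filled) and in the other kept barcodes (open) of each library, as CPM + 10 of the summed counts on a log axis, proximal in orange and distal in blue. Cd74, H2-Aa, Ctss and Spi1 are far higher in the myeloid barcodes of all 6 libraries, and C1qc in all but proximal 3, whereas Ctsb and Fos lie at like levels in both.

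Markers of other myeloid types and of other tissues were counted in the same barcodes. At least 2 of 20 macrophage genes were found in 123 of 172 (71.5%), at least 2 of 16 conventional dendritic genes in 73, and at least 2 of 12 monocyte genes in 59. Of the macrophage genes, Timd4 and Vsig4, which mark some resident populations, had no UMI in any myeloid barcode, and the resident genes Lyve1, Folr2 and Cd163 were in at most 3. The other 18 of the 20 genes were seen, among them Fcrls in 47 barcodes, Mrc1 in 28, Pf4 and Maf in 21 each and Stab1 in 17. Plasmacytoid genes were found at 2 or more in 20 and neutrophil genes in 10. Mast cell and basophil genes reached 2 in 2 barcodes, with Cpa3, Mcpt4, Tpsb2 and Mcpt8 at 0, and eosinophil genes in none, with Ccr3, Epx and Prg2 at 0. In the T and NK list, Cd3e and Cd3d were at 0, and 4 barcodes had 2 or more of its 14 genes. This list holds the 5 lymphoid genes of the rule, which left out barcodes with 2 or more of them. The low number therefore follows in part from the rule. Fibroblast genes stood out: 56 of 172 myeloid barcodes had at least 2 of 8. The summed level of this list in myeloid barcodes was 2377, 18124 and 3828 CPM in proximal 2, 3 and 4, and 5670, 6759 and 6689 CPM in distal 1, 2 and 3. Haemoglobin and other erythroid genes were found at 2 or more in 14 of the 21 myeloid barcodes of proximal 2 and in 5 in all other libraries, and their part in any result was not tested.

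Clustering of the 172 barcodes, on variable genes without the rule and list genes, gave 6 clusters. A name was given only where listed markers led, and the clusters' genes are descriptions. Clusters 1 and 2 (30 and 38 barcodes) were macrophage-like. Both were high in C1qc, at 3498 and 3582 CPM, and in Apoe, at 22636 and 20282 CPM. They differed in class II: Cd74 stood at 23358 CPM with a UMI in 93.3% of barcodes in cluster 1, and at 5159 CPM in 23.7% in cluster 2. Cluster 1 was led by Ms4a7, the scavenger receptor Stab1 and Tnf, and it held Ccl3 at 2709 CPM and the monocyte receptor gene Ccr2 at 544 CPM. Cluster 2 was led by Gm14275, Acp5, an acid phosphatase of macrophages and osteoclasts, and Fcrls, an Fc receptor-like gene, with Adgre1 at 1654 CPM and Ccr2 at 65.1 CPM. Its barcodes were shallow, with a median of 1030 UMIs and 0.297 of the median of their own library, so genes of low level are more easily missed there.

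Cluster 3 (34 barcodes) was conventional dendritic-like. Its leading genes were Btla, H2-Ob, Ciita, the aspartic protease Napsa, Jak2, H2-DMb2, Cd209a and Ltb4r1. Cd74 stood at 24055 CPM, close to cluster 1, while C1qc was at 186 CPM. Flt3 stood at 151 CPM and the dendritic transcription factor gene Zbtb46 at 93.2 CPM. Not all genes of the dendritic list went with the name. Wdfy4 and Kmo were lower in clusters 1 and 2 than in cluster 3 in each of 5 libraries. Cadm1 was higher in clusters 1 and 2 in 4 of these libraries and Naaa in 3. Irf8 was higher in 2 and lower in 2, and Xcr1 had no UMI in any myeloid barcode. Cluster 3 also held genes shared with monocytes, Plac8 in 73.5% and Ccr2 in 58.8% of its barcodes. Cd209a and C1qc were found together in 0 of the 172 barcodes, which allows up to 1.74% with a UMI of both, whereas C1qc and Cd74 were found together in 57.

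Clusters 4 to 6 were left with their numbers. In cluster 4 (16 barcodes) the neutrophil genes S100a8, S100a9 and Retnlg led, but all their UMIs came from 4 barcodes, in which Cd74 was at 0, while the cluster as a whole held Cd74 at 12244 CPM. Cluster 5 (33 barcodes) went against the myeloid label: it was led by the collagen genes Col1a1, Col3a1 and Col1a2, with Col1a1 at 4110.2 CPM, and 29 of its 33 barcodes had 3 or more of 6 fibroblast genes. Its barcodes had a median of 3 of the 8 rule genes, the fewest the rule allows, and 5 of them were among the highest doublet scores of their library. Cd74 in cluster 5 was 2155 CPM, above the pooled fibroblast barcodes at 8.71 CPM. The part of doublets in these barcodes was not tested. Cluster 6 (21 barcodes) was mixed, led by Abcb1a, Siglech, Mctp2 and Ly6d, with the endothelial gene Cdh5 in 28.6% of its barcodes. Like cluster 5, it had a median of 3 of the 8 rule genes, and 3 of its 21 barcodes were among the highest doublet scores.

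**Figure D3:**
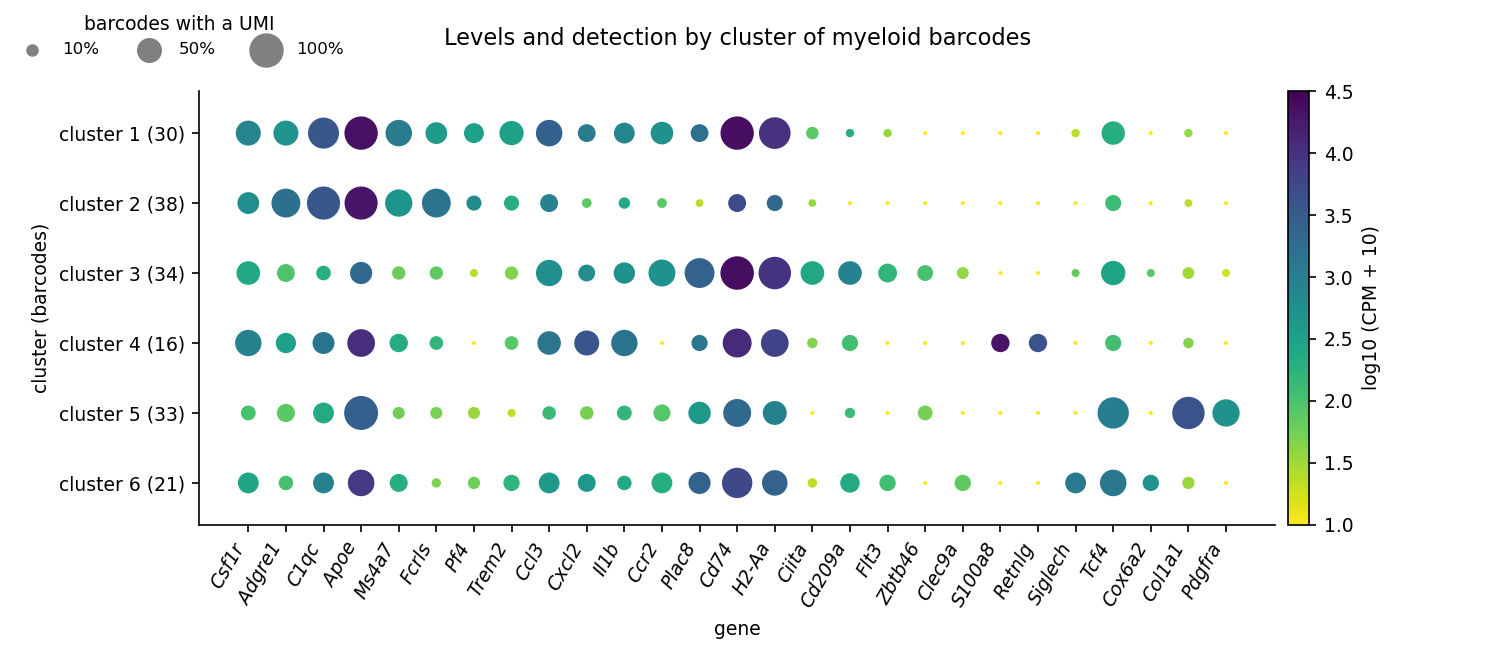
Levels and detection of 27 genes in the 6 clusters of myeloid barcodes, all libraries together. Colour is log10(CPM + 10) of the cluster's summed counts and dot area the share of barcodes with a UMI. C1qc and Apoe are highest in clusters 1 and 2, Cd209a and Ciita in cluster 3, S100a8 and Retnlg occur only in cluster 4, Siglech is highest in cluster 6, and Col1a1 in cluster 5.

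The macrophage-like and the dendritic-like barcodes were set side by side within each of 5 libraries, where the first numbered 7 and 4 in proximal 2 and 4 and 26, 26 and 5 in distal 1, 2 and 3, and the second 8 and 2, and 7, 11 and 5. These are descriptions of clusters, and the values of proximal 4 and distal 3 rest on 5 barcodes or fewer. The clusters were named by their marker list scores. Apoe, C1qc and Pf4 are in the macrophage list, and Flt3 and Cd209a in the conventional dendritic list. The differences of these genes below therefore follow from the naming and are no support for it. Of 4815 genes with 20 or more UMIs in myeloid barcodes, 2.26% were higher and 3.78% lower in the macrophage-like barcodes of each library. Apoe in macrophage-like barcodes stood at 11299.7 and 3114 CPM in proximal 2 and 4 and 25255, 19471 and 45263 CPM in distal 1, 2 and 3, and in dendritic-like barcodes at 873 and 0 CPM in proximal 2 and 4 and 4852, 1290.5 and 5535 CPM in distal 1, 2 and 3. The summed macrophage-like level was the higher of the pair in every library, although the macrophage-like level of proximal 4 was below the dendritic-like levels of distal 1 and distal 3. C1qc in macrophage-like barcodes stood at 584 and 1557 CPM in proximal 2 and 4 and 3546, 4277 and 4593 CPM in distal 1, 2 and 3, and in dendritic-like barcodes at 0 and 0 CPM in proximal 2 and 4 and 588, 17.9 and 947 CPM in distal 1, 2 and 3. It was lower in the proximal than in the distal macrophage-like barcodes.

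Lysosomal and iron genes were among those higher in macrophage-like barcodes, and class II and immediate early genes among those higher in dendritic-like barcodes. Of 18 lysosomal genes, 6 were higher in macrophage-like barcodes in each library (Ctsc, Ctsd, Ctss, Lgmn, Grn and Hexa) and none was lower. Ctsd, a lysosomal aspartic protease, stood at 424 and 889.7 CPM in proximal 2 and 4 and 1601, 660.0 and 1339.7 CPM in distal 1, 2 and 3 in macrophage-like barcodes, and at 131 and 0 CPM in proximal 2 and 4 and 245, 125 and 0 CPM in distal 1, 2 and 3 in dendritic-like barcodes. Of 13 genes on iron, haem and lipid, 5 were higher (the ferritin genes Fth1 and Ftl1, Apoe, and the lipase genes Lpl and Lipa). Among the rest, C3ar1, the platelet factor gene Pf4, Tlr2, Ly86, Clec4a1 and Clec4a2 were higher in each library. On the other side, 2 of 13 class II and costimulation genes were lower in the macrophage-like barcodes of each library, H2-DMa and Ciita, and none was higher. H2-Oa and Cd209a were lower in 4 libraries and at 0 in both sets in the fifth. Ciita, the class II coactivator, stood at 0 and 0 CPM in proximal 2 and 4 and 114, 27.5 and 0 CPM in distal 1, 2 and 3 in macrophage-like barcodes, and at 393 and 639.6 CPM in proximal 2 and 4 and 147, 179 and 146 CPM in distal 1, 2 and 3 in dendritic-like barcodes. The log2 difference of Cd74, macrophage-like over dendritic-like, was between -3.41 and 1.20, and that of H2-DMb1 between -2.37 and 1.03. Both were negative in 4 libraries and positive in distal 3, which has 5 barcodes in each set. Of 17 immediate early and stress genes, 4 were lower in macrophage-like barcodes of each library (Junb, Jund, Ier2 and Ier3), as were Csf2rb, a chain of cytokine receptors, Irf5, Cfp and the inflammasome gene Nlrp3. Flt3 had 0 UMIs in macrophage-like barcodes of 4 libraries and 27.5 CPM in distal 2, and stood at 153 and 0 CPM in proximal 2 and 4 and 147, 143 and 218 CPM in distal 1, 2 and 3 in dendritic-like barcodes.

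**Figure D4:**
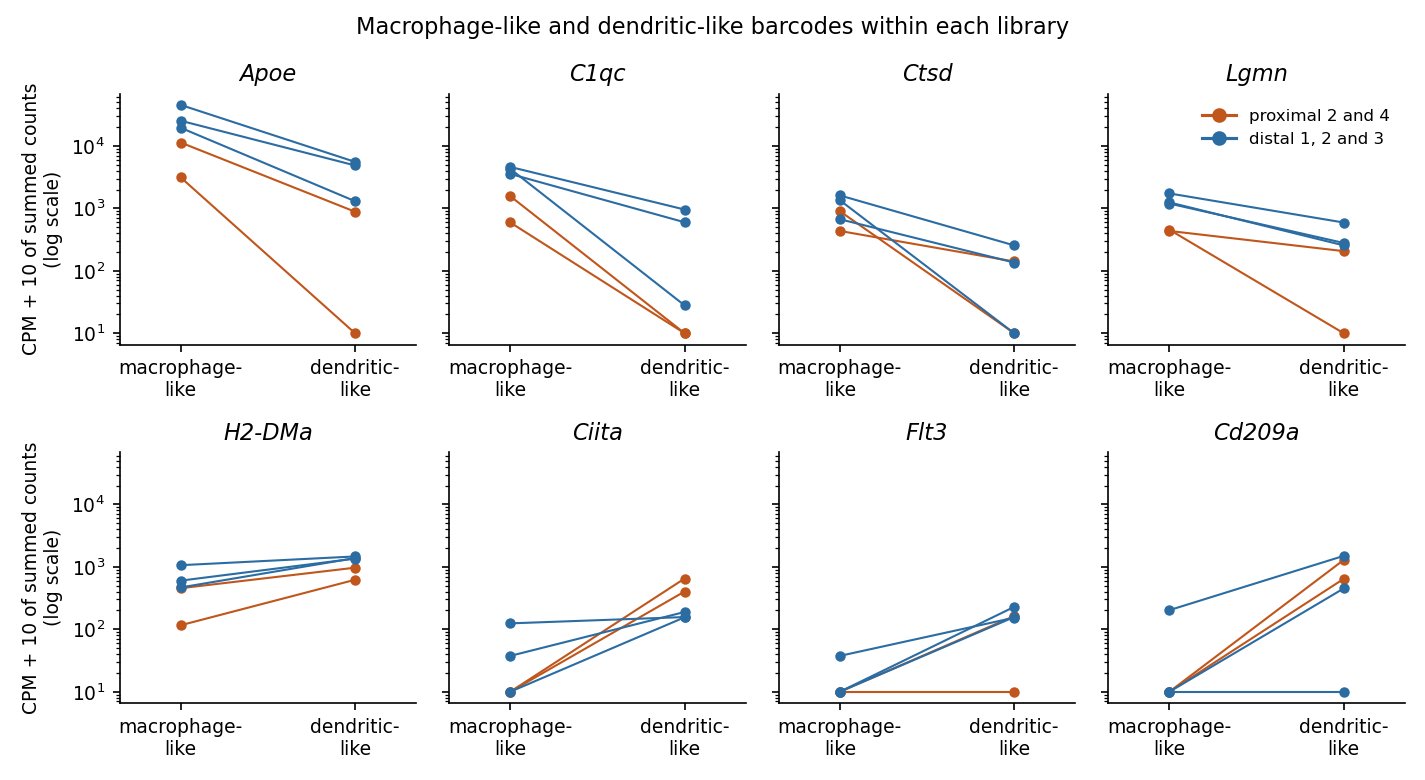
Levels of 8 genes in macrophage-like (left) and dendritic-like (right) barcodes, each line 1 library, as CPM + 10 of summed counts on a log axis, proximal 2 and 4 in orange and distal 1, 2 and 3 in blue. Lines for Apoe, C1qc, Ctsd and Lgmn fall to the right in every library, and those for H2-DMa and Ciita climb in every library. Apoe, C1qc, Flt3 and Cd209a are in the marker lists that named the clusters.

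Small sets of myeloid barcodes carried genes of further types. S100a8 and S100a9, which encode calprotectin, were found together in 4 barcodes, 1 in proximal 2 and 3 in distal 2. Each of these 4 was shallow, with 950 UMIs in proximal 2 and 825, 928 and 1160 UMIs in distal 2, of which 64 and 155, 176 and 185 were S100a8. All 4 lacked Cd74 and C1qc and had Csf3r, the receptor of the neutrophil growth factor. Siglech, a receptor of plasmacytoid dendritic cells, was found in 9 barcodes, all of which also had Tcf4, the factor of that lineage, and 6 had Ccr9. Tcf4 was also in 45.3% of all myeloid and 85.7% of fibroblast barcodes. A barcode of distal 2 (3943 UMIs) and one of distal 3 (3042 UMIs) had 1 Siglech UMI each and no Ccr9, Cox6a2, Ly6d or Runx2. The one of distal 3 lay in cluster 1 and had 14 C1qc UMIs, so the 9 are not all plasmacytoid-like. The highest Siglech counts were 20 and 19 UMIs in 2 barcodes of proximal 2 and 24 UMIs in a barcode of distal 2. Clec9a, a receptor of cross-presenting dendritic cells, was found in 7 barcodes with 1 or 2 UMIs each, and only 1 of them had Batf3, so no such set stands out at this depth. Ccr7, which guides migrating dendritic cells to lymph nodes, was found in 5 barcodes with 1 UMI each. Division genes were rare: 10 of 172 barcodes had 3 or more of 10 cell cycle genes, and Mki67 was in 8.

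Between the sections, no share of myeloid barcodes passed a test. The share of myeloid barcodes with a C1qc UMI was 28.6% (6 of 21) in proximal 2 and 36.4% (4 of 11) in proximal 4, against 63.9% (39 of 61), 46.6% (27 of 58) and 66.7% (12 of 18) in distal 1, 2 and 3. Exact 95% intervals were 11.3 to 52.2% and 10.9 to 69.2% in proximal 2 and 4, and 50.6 to 75.8%, 33.3 to 60.1% and 41.0 to 86.7% in distal 1, 2 and 3. The values of the groups did not overlap, although the intervals did, and the values did not overlap after thinning to 500 UMIs either, at 19.0% and 18.2% in proximal 2 and 4, and 45.9%, 39.7% and 55.6% in distal 1, 2 and 3. The difference was -26.6 percentage points with an exact two-sided permutation p of 0.2, the smallest that 2 against 3 libraries allow, and an adjusted p of 0.675 over 9 shares tested. Macrophage-like barcodes made up 33.3% and 36.4% in proximal 2 and 4, and 42.6%, 44.8% and 27.8% in the distal libraries. Dendritic-like barcodes made up 38.1% and 18.2%, and 11.5%, 19.0% and 27.8%. Both of these shares overlapped between the sections, with exact permutation p-values of 0.6.

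Of 2057 genes tested in the summed myeloid counts of proximal 2 and 4 against distal 1, 2 and 3, with edgeR's quasi-likelihood test and Benjamini-Hochberg adjustment, 3 (0.146%) were lower in proximal and 0 higher at an adjusted p under 0.05, while 214 had an unadjusted p under 0.05. The 3 were Mgp, the matrix Gla protein gene that fibroblasts and smooth muscle express, Htra3, a secreted serine protease gene, and Emp1, an epithelial membrane protein gene. Mgp in myeloid barcodes stood at 115 and 66.0 CPM in proximal 2 and 4, and 2158, 989.7 and 3335 CPM in distal 1, 2 and 3, with a fitted log2 proximal over distal of -4.39 ± 0.73 (SE, adjusted p = 0.0297). Htra3 stood at 10.4 and 0 CPM in proximal 2 and 4, and 254, 221 and 525 CPM in distal 1, 2 and 3 (adjusted p = 0.0455). With 1 UMI in proximal against 120 in distal, its pooled level was 29.9 times lower in proximal, with a counting interval of 5.27 to 1191. Emp1 had 0 UMIs in proximal 2 and 4 and 36, 43 and 8 UMIs in distal 1, 2 and 3 (adjusted p = 0.0455). Its pooled level was at least 7.23-fold lower in proximal, counting 3 UMIs over both proximal libraries. The calls depended on single libraries: without distal 1 or without distal 3 no gene was called, with 104 and 183 at an unadjusted p under 0.05, without distal 2 there were 12, without proximal 2 there were 4, and without proximal 4 there were 180. DESeq2 called 15 genes, and with the highest doublet scores left out edgeR called 0, with 209 at an unadjusted p under 0.05. The fitted log2 values of the 3 genes changed little in the settings of these that lost their calls. With the highest doublet scores left out they were -4.42 for Mgp, -4.88 for Htra3 and -7.09 for Emp1. Without distal 1 they were -4.37, -5.08 and -7.11 for Mgp, Htra3 and Emp1, and without distal 3 they were -4.01, -4.62 and -7.70. The calls were also lost with barcodes of 3 or more of 6 fibroblast genes left out, for which no fitted values of the 3 genes are given.

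Mgp and Htra3 UMIs came almost entirely from the collagen-rich barcodes, and Emp1 UMIs in larger part. Cluster 5 held 94.7% of the Mgp, 98.3% of the Htra3 and 66.7% of the Emp1 UMIs of all myeloid barcodes, and it made up 4.76% and 9.09% of myeloid barcodes in proximal 2 and 4, against 27.9%, 15.5% and 22.2% in distal 1, 2 and 3. Outside cluster 5, Mgp stood at 45.4 and 0 CPM in proximal 2 and 4, and 232, 71.0 and 88.6 CPM in distal 1, 2 and 3. Htra3 outside cluster 5 had at most 1 UMI in any library. Emp1 outside cluster 5 stood at 0 and 0 CPM in proximal 2 and 4, and 179, 53.3 and 88.6 CPM in distal 1, 2 and 3, so it was still at 0 in both proximal libraries. With barcodes of 3 or more of 6 fibroblast genes left out, a setting added after the data were seen, 0 of 1846 genes were called and 131 had an unadjusted p under 0.05. Among the other barcodes, which are mostly fibroblast and epithelial, Mgp stood at 2924, 735 and 1626 CPM in proximal 2, 3 and 4, and 3464, 3619 and 1776 CPM in distal 1, 2 and 3. The level of proximal 2 lay between those of distal 3 and distal 1, so the sections overlapped for Mgp there. Htra3 in the other barcodes stood at 464, 224 and 335 CPM in proximal 2, 3 and 4, and 514, 969 and 532 CPM in distal 1, 2 and 3, and did not overlap. Emp1 in the other barcodes stood at 63.0, 260 and 209 CPM in proximal 2, 3 and 4. In distal 1, 2 and 3 it stood at 128, 177 and 121 CPM, below proximal 3 and 4 and above proximal 2. In the pooled fibroblast barcodes all 3 genes were lower in proximal than in distal libraries, with Mgp at 4096 and 6766 CPM, Htra3 at 714 and 1519.6 CPM, and Emp1 at 106 and 266 CPM. The direction seen in the myeloid barcodes was thus also present in the pooled fibroblast barcodes, for which no spread between libraries is given. For Emp1 it was not present in all libraries of the other barcodes.

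**Figure D5:**
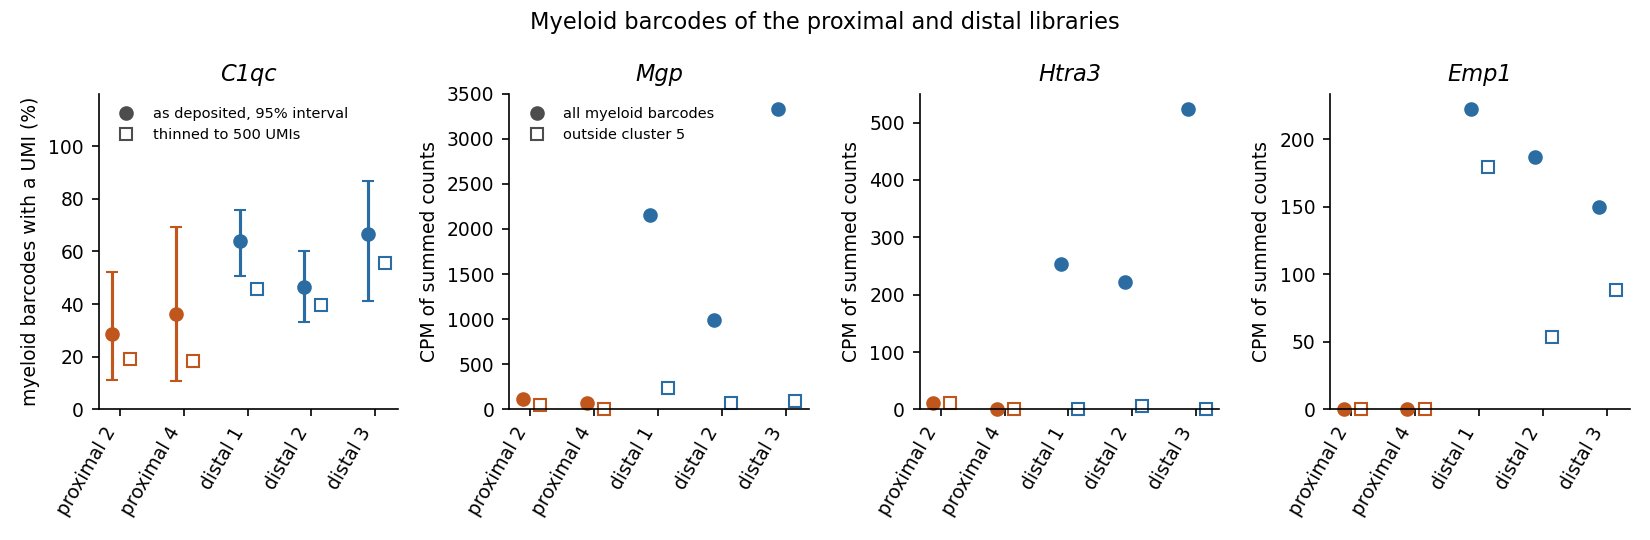
Myeloid barcodes of proximal 2 and 4 (orange) and distal 1, 2 and 3 (blue). The first panel gives the share with a C1qc UMI (%), filled with exact 95% binomial intervals and open after thinning to 500 UMIs. The other panels give CPM of summed counts on linear axes for Mgp, Htra3 and Emp1, filled for all myeloid barcodes and open outside cluster 5. The proximal C1qc shares lie below the distal ones, and the distal levels of Mgp and Htra3 nearly vanish outside cluster 5.

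No gene of the myeloid lists passed the adjusted threshold between the sections. In the macrophage list, 0 of 9 genes tested were called and 5 had an unadjusted p under 0.05, with a median log2 proximal over distal of -1.32, beside -0.08 over all genes tested. The fibroblast list in the same barcodes had a median of -1.88, with 0 of 7 genes called and 4 at an unadjusted p under 0.05, and its part in the macrophage values was not tested. C1qc had 271 and 858 CPM in proximal 2 and 4, against 1404, 1476 and 1967 CPM in distal 1, 2 and 3, a fitted log2 of -1.83 ± 0.57 and an adjusted p of 0.181 by edgeR. Both proximal values were below all distal ones. Ms4a7 had 62.6 and 132 CPM in proximal 2 and 4, against 229, 378 and 468 CPM in distal 1, 2 and 3 (log2 -2.20 ± 0.61, edgeR adjusted p = 0.143), and the groups again did not overlap. Apoe, with a log2 of -1.32 ± 0.48 and an edgeR adjusted p of 0.287, showed the same order, and it is a gene that fibroblast barcodes also held. In the opposite direction, Csf2ra, a chain of the GM-CSF receptor, had 323 and 462 CPM in proximal 2 and 4, against 49.5, 139 and 112 CPM in distal 1, 2 and 3 (log2 1.79 ± 0.49, edgeR adjusted p = 0.143), and the inhibitory lectin gene Clec12a had 511 and 594 CPM in proximal 2 and 4, against 247, 217 and 131 CPM in distal 1, 2 and 3 (log2 1.30 ± 0.46, edgeR adjusted p = 0.274). Of 11 class II and costimulation genes, 0 were called and 2 had an unadjusted p under 0.05. Cd74 had a log2 of 0.13 ± 0.49 and H2-Aa of 0.09 ± 0.50, and the list's median was 0.13. The 2 were Ciita, with 188 and 132 CPM in proximal 2 and 4, against 55.6, 56.4 and 37.5 CPM in distal 1, 2 and 3 (log2 1.66 ± 0.67, edgeR adjusted p = 0.335), and H2-Ob, with 125 and 132 CPM in proximal 2 and 4, against 0, 8.68 and 56.2 CPM in distal 1, 2 and 3 (log2 3.16 ± 1.43, edgeR adjusted p = 0.441). The 6 conventional dendritic genes tested had a median of 0.45 and the 6 monocyte genes one of 1.04, with 0 called in each. The 18 lysosomal genes tested had a median of -0.57 and the 15 cytokine genes one of -0.20, also with 0 called. The haemoglobin gene Hbb-bs was at 459 and 132 CPM in proximal 2 and 4, against 117, 86.8 and 0 CPM in distal 1, 2 and 3, and its part in these values was not tested.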

How the data were processed

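The 6 droplet libraries, 3 proximal and 3 distal, were grouped by the section given in their labels. The authors deposited gene by barcode UMI counts, whole numbers with no normalization, for 20731 barcodes and 50559 genes, and these deposited counts were the only unit used. Cell Ranger 7.0.0 is named per the file headers and Cell Ranger 6.1.2 with mm39 per the submitters' processing notes, so the version behind the counts is not settled, and the filters used to list barcodes are not given in the sources used here. The libraries were made with the Single Cell 3' v2 chemistry per the labels.

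The myeloid barcodes, gene lists and tests were chosen with earlier results of these data known, so no list is independent evidence. For comparison, kept barcodes outside the myeloid set were called T and NK with at least 2 of the 5 lymphoid genes, epithelial with at least 3 keratin and Epcam UMIs, and otherwise fibroblast with at least 3 of 6 genes (Col1a1, Col1a2, Col3a1, Dcn, Lum and Pdgfra). Of 383 list symbols 382 matched the files. Counts were summed over myeloid barcodes per library and given as CPM. Fold differences against other barcodes used log2(CPM + 10), in libraries with at least 10 myeloid barcodes. Named genes were the 30 with the highest lowest-library difference among genes of at least 100 CPM, genes called between the sections, the leading genes of each cluster with at least 20% detection, and list genes, of which 1 is not reported here. Clusters came from scanpy 1.11.5 and leidenalg 0.10.2 under Python 3.11.15 (1000 variable genes without rule and list genes, 15 components, 10 neighbours, resolution 1). Doublet scores came from simulated doublets, the highest 0.8% per 1000 barcodes were marked, and marked barcodes were kept except in 1 alternative. Sections were compared with edgeR 4.0.16 in R 4.3.3 (quasi-likelihood test, TMM, filterByExpr with a minimum count of 10 and a minimum total of 15, adjusted p under 0.05), with DESeq2 1.42.0 as an alternative, and shares with exact permutation tests over libraries (scipy 1.17.1). With Benjamini-Hochberg adjustment, the simulated check of the proximal against distal test on 1996 genes called 58 of 98 genes changed by a log2 of 2, 86 of 94 changed by 4, and 10 of 1804 unchanged genes. P-values measure the spread between libraries, which may be partly technical. Library numbers were not taken to pair the sections, since titles and descriptions number distal 3 differently and the correlation of same-numbered libraries' deviations was 0.161 and 0.065 over only 2 pairs. Intervals and the limit of 3 counts cover counting error only.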

Additional observations from a re-analysis of the deposited data

How the results depend on the processing

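The number of genes called between the sections, 3 in the 5 libraries, depended on most settings, and the cause was not tested. It was 8 with DESeq2's size factors in edgeR, 15 with DESeq2, 25 with no filter on low counts, 13 with a minimum count of 5, 15 with at least 20 myeloid barcodes per library, which leaves proximal 2 against distal 1 and 2, and 122 (42 higher and 80 lower in proximal) with at least 4 markers, which leaves proximal 2 against all 3 distal libraries. It was 0 with the highest doublet scores left out (209 at an unadjusted p under 0.05) and 0 with barcodes of 3 or more fibroblast genes left out (131), the second chosen after seeing the data. Leaving out 1 library at a time gave 0 to 180 genes. Where 1 proximal library remained, it was assumed to vary like the distal ones. With all 6 libraries, also added later, it was 8 (5 higher and 3 lower). Mgp, Htra3 and Emp1 kept a negative log2 in every setting that tested them, with adjusted p-values between 4.45e-08 and 0.211 when single libraries were left out.

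The share of myeloid barcodes, proximal minus distal, stayed positive in all settings, at 0.105 to 0.902 points with single libraries left out, 2.62 points with at least 2 markers (exact p = 0.1, the smallest that 3 against 3 allow) and 0.147 points with at least 4. It was 0.0454 points with Lyz2, Tyrobp and Fcer1g counted as 1 marker. The difference in C1qc share was -32.8 to -22.7 points with single libraries left out. The macrophage-like share changed sign with another clustering seed (0.410 points) and ranged over -8.88 to -0.35 with single libraries left out. The dendritic-like share ranged over -1.22 to 18.7 and changed sign without proximal 2. At a resolution of 0.5 there were 3 clusters and none was dendritic-like. The macrophage list led in one of 67 barcodes and the fibroblast list in one of 32, and one of 73 had no name. Counts of genes at least 4-fold higher than in other barcodes were 172 with at least 4 markers and 139 without the highest doublet scores, beside 144.

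With the replicate block over all 6 libraries, 15 genes were called (6 higher and 9 lower in proximal), with edgeR adjusted p-values of 0.0728 for Mgp (log2 -3.76), 0.00735 for Htra3 and 0.00425 for Emp1. The numbers 1 and 4 occur in 1 section each, so with this block the section difference rests on the pairs numbered 2 and 3. The pair numbered 3 includes the 3 myeloid barcodes of proximal 3. It may not be a true pair, since titles and descriptions number distal 3 differently. The edgeR test on barcode numbers gave a log2 of 0.85 (adjusted p = 0.321) without the replicate block and 1.03 (adjusted p = 0.157) with it. The block could not be fitted to the 5 libraries, which share only the number 2. Depth limits the proximal values most, since their myeloid barcodes held 114528 UMIs in all, against 445476 in distal.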

Other observations

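Of 11 genes for factors that act on myeloid cells, 4 had a higher pooled level in myeloid than in the other barcodes (Ccl2, Flt3l, Cd47 and Tgfb1) and 7 a lower one, with no test. Cxcl12, a chemokine that holds leukocytes in tissue, stood at 132 CPM in myeloid barcodes, 51.8 CPM in T and NK, 32.2 CPM in epithelial and 646 CPM in fibroblast barcodes, pooled over libraries. Csf1, the main ligand of the receptor encoded by Csf1r, stood at 16.1 CPM in myeloid, 7.54 CPM in epithelial and 37.2 CPM in fibroblast barcodes, and Il34, the other ligand of that receptor, at 10.7, 39.7 and 15.1 CPM in the same classes. Cx3cl1, the ligand of the receptor encoded by Cx3cr1, stood at 3.57 CPM in myeloid and 40.0 CPM in epithelial barcodes. Csf3, the growth factor of neutrophils, stood at 3.57 CPM in myeloid and 61.1 CPM in epithelial barcodes. Ccl2, a chemokine that draws monocytes, stood at 78.6 CPM in myeloid, 1.73 CPM in T and NK, 16.9 CPM in epithelial and 34.2 CPM in fibroblast barcodes. Cd47, which signals against engulfment, stood at 300.0 CPM in myeloid and 343 CPM in T and NK barcodes. Tgfb1 stood at 311 CPM in myeloid, 202 CPM in T and NK, 14.1 CPM in epithelial and 33.5 CPM in fibroblast barcodes. The classes other than myeloid were set by few marker genes, and any free RNA was not removed, so values of a few CPM are not read as expression.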
